A study of Mus musculus with 4 samples.

Results

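The S100 proteins S100a4, S100a6, S100a10 and S100a11, the galectin gene Lgals1, the annexin gene Anxa2 and the cytoskeletal and adhesion genes Vim, Crip1, Ahnak and Itgb1 were followed through T cells of a tumour-draining lymph node. They were chosen by symbol and make up 10 of the 32285 genes in the count tables. S100 proteins are small calcium sensors that bind partner proteins, among them annexins, nonmuscle myosin and cytoskeletal scaffolds. In T cells, genes of this kind are known to be low in naive cells and to be switched on together when cells become effector or memory cells, which change shape, adhere and enter tissues. S100a10 and Anxa2 form one complex at the inner face of the plasma membrane, and Ahnak, a giant scaffold protein, binds it.

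The cells were live T cells sorted from draining lymph nodes of mice inoculated with MC38-OVA, a mouse colon carcinoma line that carries ovalbumin. There was 1 library for each of 4 groups, named here by their labels. KO-DOX came from doxorubicin-treated mice with a deletion of PD-L1 limited to dendritic cells, and KO-CTRL from mice of that genotype given the control treatment. WT-DOX came from doxorubicin-treated mice of the control genotype, and WT-CTRL from control-treated mice of the control genotype. Doxorubicin is a DNA-damaging chemotherapy drug. All 4 groups carried the tumour, so no group shows a node without one. The labels do not state the driver of the deletion, the age of the mice or how many mice gave a library.

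The libraries held 10372 (KO-DOX), 12959 (KO-CTRL), 12438 (WT-DOX) and 12828 (WT-CTRL) barcodes with 37754389, 47081849, 42987683 and 46300824 unique molecular identifiers (UMIs). Any pair of libraries shared 175 to 271 barcode sequences. Cd274, the gene of PD-L1, stood at 83.6 (KO-DOX), 85.2 (KO-CTRL), 66.5 (WT-DOX) and 67.8 (WT-CTRL) CPM (UMIs of the gene scaled to a common total) over all T cells, which are not the cells the deletion targets. In the 47, 24, 36 and 29 cells marked as antigen-presenting it stood at 128 (KO-DOX), 122 (KO-CTRL), 56.6 (WT-DOX) and 78.3 (WT-CTRL) CPM. Cd274 was thus not lower in either library labelled KO, and the genotype rests on the labels. After 354 B-marked and 136 antigen-presenting marked cells were set aside, 48088 T cells remained. Gates on single marker genes gave 1930 Ccl5-positive CD8 cells, 775 Foxp3-positive cells (regulatory T cells carry Foxp3), 391 Trdc-positive cells (Trdc encodes the delta chain of the gamma delta receptor), 7782 Foxp3-negative CD4 cells and 19931 Ccl5-negative CD8 cells. The other 17279 T cells fell in no gate. T cell receptor genes were present in every gate, at a summed 2408 to 3510 CPM, and 6 of 6 gamma delta genes were detected in the Trdc-positive gate of every library.

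All 4 S100 genes lie on mouse chromosome 3, in positions that GENCODE M21 gives on GRCm38. S100a4 spans chr3:90603771-90606045 and S100a6 chr3:90612882-90624181, and 6836 bases separate them. S100a11 spans chr3:93520488-93526287 and S100a10 chr3:93555080-93564643. The rest are scattered: Lgals1 at chr15:78926725-78930465, Anxa2 at chr9:69453620-69491795, Vim at chr2:13573927-13582826, Crip1 at chr12:113146316-113153879, Ahnak at chr19:8989284-9076914 and Itgb1 at chr8:128685654-128733200. All 10 are on the plus strand. The S100a4 span overlaps Gm42674 on the same strand and the Anxa2 span overlaps the microRNA gene Mir3109 on the same strand and Gm16144 on the opposite strand, so their reads may be shared with those genes.

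The 250 bases before the start that RefSeq gives, which for S100a6 and S100a11 lies inside the GENCODE span above, are shown for 3 S100 genes that behave differently below, the first pair sharply restricted to a few cells and the third broadly detected. The sequences are RefSeq's on GRCm38.p6, plus strand, 5′ to 3′, and capitals mark each match on either strand. The letters searched were TATAAA, the core of a promoter element near the start, and GGGCGG, bound by Sp-family factors. Also searched were TGANTCA, which AP-1 factors bind, and TGTGGT, which Runx factors bind. The windows are chr3:90603520-90603769 for S100a4, chr3:90612644-90612893 for S100a6 and chr3:93520246-93520495 for S100a11.
S100a4: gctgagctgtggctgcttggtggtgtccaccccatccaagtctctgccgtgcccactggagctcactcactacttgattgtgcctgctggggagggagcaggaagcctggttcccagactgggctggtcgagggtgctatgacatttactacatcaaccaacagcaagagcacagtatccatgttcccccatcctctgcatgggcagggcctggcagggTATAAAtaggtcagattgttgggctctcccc
S100a6: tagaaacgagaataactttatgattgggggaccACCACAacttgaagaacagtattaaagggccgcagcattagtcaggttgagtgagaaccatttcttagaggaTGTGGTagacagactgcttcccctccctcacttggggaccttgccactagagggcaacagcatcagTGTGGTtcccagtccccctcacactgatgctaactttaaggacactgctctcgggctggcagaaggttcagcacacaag
S100a11: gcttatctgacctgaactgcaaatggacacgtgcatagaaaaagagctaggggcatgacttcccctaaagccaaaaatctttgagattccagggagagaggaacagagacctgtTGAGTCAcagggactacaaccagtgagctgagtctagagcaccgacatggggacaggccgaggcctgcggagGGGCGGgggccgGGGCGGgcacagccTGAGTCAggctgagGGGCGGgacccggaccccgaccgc
S100a4 holds TATAAA 31 bases before its start and none of the other letters. S100a6 holds TGTGGT or its complement 217, 145 and 79 bases before its start. S100a11 holds GGGCGG 64, 52 and 24 bases before and TGANTCA 136 and 38 bases before. Of 32851 such windows over all genes, 12.4% hold TATAAA, 32.7% GGGCGG, 6.7% TGANTCA and 14% TGTGGT. Among the 8 members with an entry, TATAAA occurs before S100a4, Anxa2 and Vim, and GGGCGG before S100a11, Anxa2, Crip1, Ahnak and Itgb1. TGANTCA occurs before S100a11 and Anxa2, and TGTGGT before S100a6 alone. Lgals1 and S100a10 have no entry. These are matches of letters, and binding was not measured.

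In CD8 cells, all 10 genes were higher in Ccl5-positive than in Ccl5-negative cells. Ccl5 encodes a chemokine that antigen-experienced CD8 cells make. UMIs were summed per gate and library, and gates were compared with edgeR over the 4 libraries, which were of 4 different conditions. Of 10253 genes tested, 18.7% were higher and 14.3% lower at an adjusted p under 0.05. The median log2 fold was 1.66 over the 10 genes and -0.01 over all genes tested.

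S100a4, which binds nonmuscle myosin, had 121 (KO-DOX), 85.8 (KO-CTRL), 48.6 (WT-DOX) and 131 (WT-CTRL) CPM in Ccl5-positive CD8 cells. In Ccl5-negative CD8 cells it had 15.3 (KO-DOX), 13.5 (KO-CTRL), 6.41 (WT-DOX) and 11.9 (WT-CTRL) CPM. The gates did not overlap, WT-DOX was lowest in both, and the log2 fold was 3.11 (SE 0.33, adjusted p = 7.7e-06). S100a6, another calcium-binding S100 protein, averaged 431 ± 53.8 CPM in Ccl5-positive and 62.3 ± 19.0 CPM in Ccl5-negative CD8 cells (SD, n = 4 libraries), a log2 fold of 2.91 (SE 0.21, adjusted p = 2.2e-07). S100a10, which does not bind calcium, and S100a11, a partner of annexin A1, were higher by smaller folds. Their log2 folds were 1.0 (SE 0.13) and 0.60 (SE 0.09), with S100a11 at 356 ± 39.4 CPM in Ccl5-positive and 248 ± 5.12 CPM in Ccl5-negative CD8 cells.

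The annexin partner of S100a10 and the scaffold of their complex were higher too. Anxa2 averaged 101 ± 26.4 CPM in Ccl5-positive and 24.8 ± 6.44 CPM in Ccl5-negative CD8 cells, a log2 fold of 2.12 (SE 0.16, adjusted p = 2e-07). Ahnak averaged 147 ± 23.0 and 51.2 ± 7.04 CPM in the same gates, a log2 fold of 1.61 (SE 0.09, adjusted p = 1.5e-11). Lgals1, which encodes the secreted lectin galectin 1, reached 462 ± 143 CPM in Ccl5-positive cells against 124 ± 30.8 CPM in Ccl5-negative cells. Its Ccl5-positive level was 270 CPM in WT-DOX and 468 to 616 CPM in the other 3 libraries. Itgb1, the integrin beta chain that pairs with several alpha chains to bind matrix, had a log2 fold of 1.71 (SE 0.16). Vim, an intermediate filament protein, and Crip1, a small LIM-domain protein, had log2 folds of 1.01 (SE 0.15) and 0.89 (SE 0.10). Ccl5-positive CD8 cells were deeper, with a median of 4119 to 4419 UMIs per cell against 3321 to 3394 in Ccl5-negative CD8 cells.

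**Figure D1:**
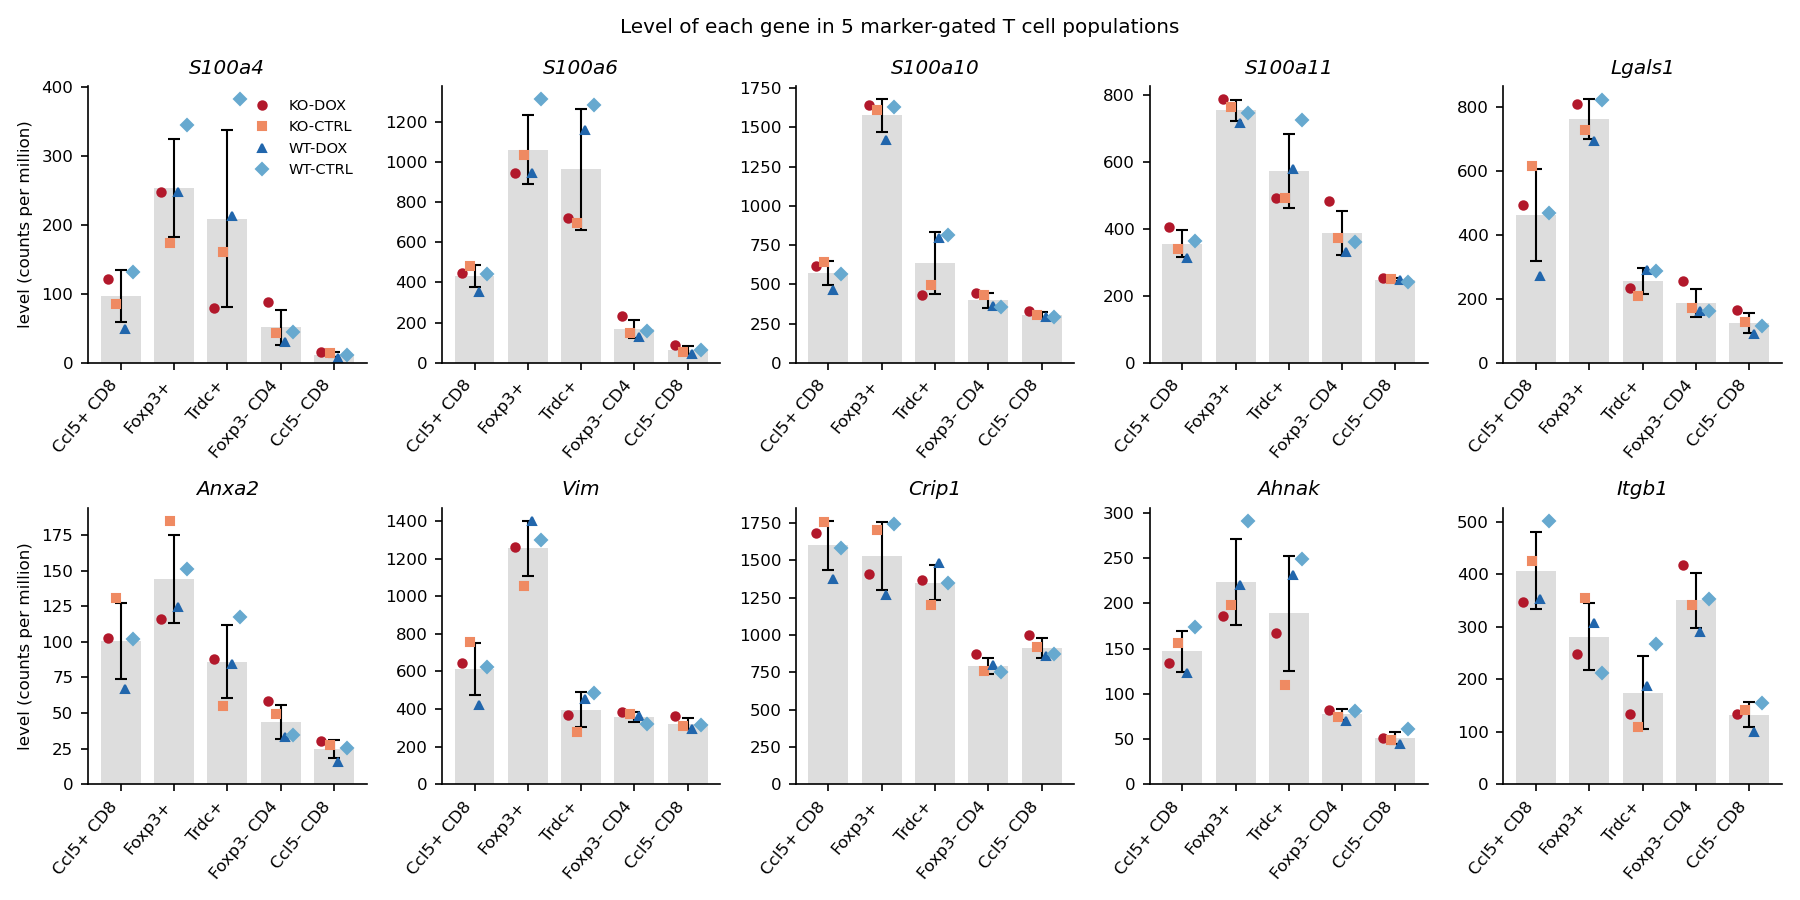
Level of each gene, in CPM on a linear axis from 0, in the 5 gates. Points are the 4 libraries, bars their mean and error bars 1 SD. Foxp3-positive cells have the highest mean for 8 of the 10 genes, and Crip1 and Itgb1 are highest in Ccl5-positive CD8 cells.

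Foxp3-positive cells held the highest mean levels of the 4 S100 genes. For S100a4 and S100a6 the difference from Trdc-positive cells was inside the spread, as given below. In WT-CTRL, S100a4 was higher in Trdc-positive cells, at 382 CPM against 346 CPM in Foxp3-positive cells. In Foxp3-positive over Foxp3-negative CD4 cells, 9 of the 10 genes were higher and none was lower, while 25.1% of all genes tested were higher and 23.7% lower. The median log2 fold was 1.70 over the 10 genes and -0.02 over all genes. S100a6 had 947 (KO-DOX), 1036 (KO-CTRL), 946.5 (WT-DOX) and 1312 (WT-CTRL) CPM in Foxp3-positive cells. In Foxp3-negative CD4 cells it had 233 (KO-DOX), 150 (KO-CTRL), 127 (WT-DOX) and 158 (WT-CTRL) CPM. All Foxp3-positive values lay far above all CD4 values, at a log2 fold of 2.61 (SE 0.21, adjusted p = 2e-07).

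S100a4 had 247 (KO-DOX), 174 (KO-CTRL), 248 (WT-DOX) and 346 (WT-CTRL) CPM in Foxp3-positive cells. It had 87.5 (KO-DOX), 42.4 (KO-CTRL), 30.5 (WT-DOX) and 44.1 (WT-CTRL) CPM in Foxp3-negative CD4 cells, and the log2 fold was 2.26 (SE 0.29, adjusted p = 2.2e-05). S100a10 averaged 1576 ± 104 CPM in Foxp3-positive and 398 ± 46.5 CPM in Foxp3-negative CD4 cells, a log2 fold of 1.91 (SE 0.13). Lgals1 and Vim rose with it, at log2 folds of 1.96 (SE 0.17) and 1.72 (SE 0.15). Anxa2 rose by 1.67 (SE 0.18), Ahnak by 1.45 (SE 0.10), S100a11 by 0.89 (SE 0.09) and Crip1 by 0.87 (SE 0.10) on the log2 scale. Itgb1 was the exception, at 281 ± 63.5 CPM in Foxp3-positive and 351 ± 52.3 CPM in Foxp3-negative CD4 cells (log2 fold -0.40, SE 0.18, adjusted p = 0.089), higher in 2 libraries and lower in 2. With at least 2 UMIs of each gate marker required, Itgb1 was lower in Foxp3-positive cells (log2 fold -1.23, adjusted p = 7.2e-05).

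The mean share of cells with S100a4 gave the same order of gates as its mean level, though ranges of the middle gates overlapped. At least 1 S100a4 UMI was found in 26.2% to 39.4% of Foxp3-positive cells over the 4 libraries. The range was 6.83% to 9.49% in Ccl5-positive CD8, 7.06% to 19.6% in Trdc-positive, 3.66% to 7.13% in Foxp3-negative CD4 and 0.651% to 1.51% in Ccl5-negative CD8 cells. Median depth was 3851 to 4065 UMIs in Foxp3-positive cells and 3321 to 3394 in Ccl5-negative CD8 cells, the gate with the lowest share. Cells under 1500 UMIs were then dropped and the rest thinned to 1500 UMIs. After this the shares were 15.3% to 25.1% in Foxp3-positive and 0.213% to 0.612% in Ccl5-negative CD8 cells. Between them were 5.19% to 17.7% in Trdc-positive, 3.93% to 6.53% in Ccl5-positive CD8 and 1.95% to 4.29% in Foxp3-negative CD4 cells. Foxp3-positive cells made up 1.42% to 1.82% of T cells and held 16% to 24.9% of their S100a4 UMIs. Ccl5-negative CD8 cells made up 39.5% to 43.7% of T cells and held 11.6% to 16.3%.

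Other gene groups were counted in the same contrasts. Of 23 other cytoskeleton, LIM and lectin genes tested, 17 were higher and 1 lower in Ccl5-positive than in Ccl5-negative CD8 cells, led by the galectin gene Lgals3 (log2 fold 3.40), the lamin gene Lmna (1.87) and the myosin gene Myo1f (1.79), while the actinin gene Actn1 fell by 0.47. In Foxp3-positive over Foxp3-negative CD4 cells the counts were 13 higher and 4 lower, with the actin-capping gene Capg at 2.37 and Actn1 at -1.94. Of 8 other S100 and annexin genes tested, 4 were higher and 1 lower in Ccl5-positive CD8 cells, and 7 were higher in Foxp3-positive cells. The 10 other integrin genes were divided, with 4 higher and 4 lower in Ccl5-positive over Ccl5-negative CD8 cells and 6 higher and 3 lower in Foxp3-positive over Foxp3-negative CD4 cells. Among them Itgae, which marks tissue-homing T cells, was higher in Foxp3-positive than in Foxp3-negative CD4 cells (log2 fold 3.88) and lower in Ccl5-positive than in Ccl5-negative CD8 cells (-1.09). Itga4, an alpha chain that pairs with Itgb1, was lower in both contrasts (-1.17 and -0.82).

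Division genes moved with these gates. All 10 division genes tested were higher in both contrasts, and their summed level was 1991 to 3691 CPM in Ccl5-positive CD8, 4940 to 6238 CPM in Foxp3-positive, 883 to 1165 CPM in Trdc-positive, 1802 to 2534 CPM in Foxp3-negative CD4 and 1233 to 1768 CPM in Ccl5-negative CD8 cells. Of 20 memory and effector genes, 17 were higher in Ccl5-positive CD8 cells, and 12 were higher and 2 lower in Foxp3-positive cells. Of 13 naive and quiescence genes, 9 were lower and 2 higher in Ccl5-positive CD8 cells, and 12 were lower and 1 higher in Foxp3-positive cells. The 8 myeloid and dendritic markers summed to 54.1 to 120 CPM across the 5 gates, nearly all of it Cst3, against 1438 to 3442 CPM in antigen-presenting marked cells. Lyz2 was at 0.368 CPM or less in every gate, and the 3 neutrophil markers were at 0.0503 CPM or less. Ighm stood at 447 to 515 CPM in Foxp3-positive and 163 to 171 CPM in Foxp3-negative CD4 cells, while Ms4a1 was at 0 in Foxp3-positive cells. The part of division and of these markers in the gate differences was not tested.

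Trdc-positive cells had high S100a4 and S100a6. Their mean Itgb1, at 175 CPM, was below that of every other gate except Ccl5-negative CD8 cells, at 132 CPM. Over Ccl5-negative CD8 cells, 6 of the 10 genes were higher and none was lower, against 5.23% higher and 4.38% lower among all genes. S100a4 had 79.4 (KO-DOX), 161 (KO-CTRL), 213 (WT-DOX) and 382 (WT-CTRL) CPM in Trdc-positive cells, from 19, 50, 58 and 117 UMIs. These values spread widely yet all exceeded the 6.41 to 15.3 CPM of Ccl5-negative CD8 cells (log2 fold 4.03, SE 0.56, adjusted p = 2.7e-04). S100a6 averaged 964 ± 301 CPM in Trdc-positive cells, a log2 fold of 3.81 (SE 0.27), and Ahnak 189 ± 63.6 CPM, a log2 fold of 1.70 (SE 0.18). S100a11 was higher by 1.03 (SE 0.12), S100a10 by 0.90 (SE 0.18, adjusted p = 0.0047) and Anxa2 by 1.62 (SE 0.38, adjusted p = 0.013). Without WT-DOX, or without WT-CTRL, S100a10 (adjusted p = 0.054 and 0.087) and Anxa2 (adjusted p = 0.11 and 0.10) no longer passed.

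Lgals1 at 255 ± 40.1 CPM in Trdc-positive cells had a log2 fold of 0.88 (adjusted p = 0.089) over Ccl5-negative CD8 cells, and Crip1 0.38 (adjusted p = 0.055). Vim had 0.13 (adjusted p = 0.82) and Itgb1 0.23 (adjusted p = 0.76). With cells above the 98th percentile of UMIs left out, Lgals1 (1.84), Vim (0.49) and Crip1 (0.49) passed, and 9 of the 10 genes were higher. Against Foxp3-negative CD4 cells, Itgb1 was lower in Trdc-positive cells, at 175 ± 70.2 against 351 ± 52.3 CPM (log2 fold -1.01, adjusted p = 0.042), among 6 higher and 1 lower of the 10 genes (6.65% higher and 6.52% lower among all). Of the division genes, 0 of 10 were higher and 4 lower over Ccl5-negative CD8 cells, and all 10 were lower than in Foxp3-negative CD4 cells.

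Between the large gates, 7 of the 10 genes were higher in Foxp3-negative CD4 than in Ccl5-negative CD8 cells and Crip1 was lower, while 22.6% of all genes were higher and 21.6% lower. S100a4 led with a log2 fold of 1.93 (SE 0.30), followed by S100a6 at 1.26 (SE 0.21) and Itgb1 at 1.25 (SE 0.15). Itgb1 had 418 (KO-DOX), 341 (KO-CTRL), 291 (WT-DOX) and 354 (WT-CTRL) CPM in Foxp3-negative CD4 cells, against 133 (KO-DOX), 142 (KO-CTRL), 99.9 (WT-DOX) and 155 (WT-CTRL) CPM in Ccl5-negative CD8 cells. Crip1 averaged 794 ± 54.2 CPM in Foxp3-negative CD4 and 913 ± 64.0 CPM in Ccl5-negative CD8 cells (log2 fold -0.36, adjusted p = 0.0068). Lgals1 passed narrowly (log2 fold 0.44, adjusted p = 0.043) and missed without KO-DOX (adjusted p = 0.12), without WT-DOX (0.12) or without WT-CTRL (0.13). S100a10 (log2 fold 0.22, adjusted p = 0.18) and Vim (-0.00, adjusted p = 0.99) did not pass. Scaling by total counts moved the log2 folds in this contrast by a median of 0.16 units relative to the edgeR scaling, enough to give Vim a positive sign. That median was over 3196 genes with a mean of at least 50 CPM.

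**Figure D2:**
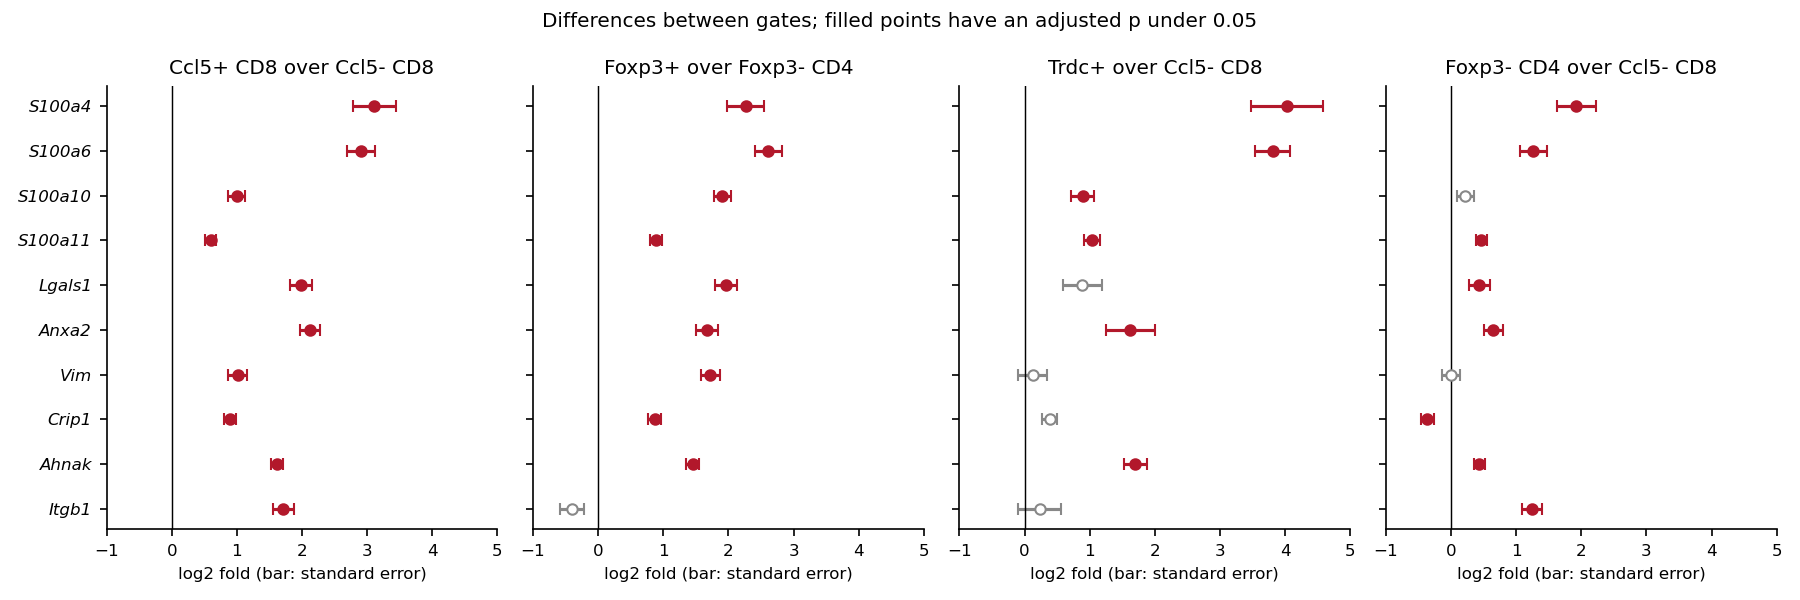
Fitted log2 fold of each gene in 4 gate contrasts, with bars of 1 standard error. Filled points passed at an adjusted p under 0.05 and open points did not. S100a4 and S100a6 have the largest folds in the CD8, Trdc and Foxp3 contrasts, and Itgb1 alone is below 0 in the Foxp3 contrast.

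Ranked over the 5 gates, S100a4 and S100a6 had the order Foxp3-positive, Trdc-positive, Ccl5-positive CD8, Foxp3-negative CD4 and Ccl5-negative CD8. The first neighbours did not differ beyond their spread, with Foxp3-positive over Trdc-positive at 0.16 (adjusted p = 0.82) for S100a4 and 0.06 (adjusted p = 0.88) for S100a6. S100a4 in Ccl5-positive CD8 over Trdc-positive cells was also inside the spread (log2 fold -0.92, SE 0.47, adjusted p = 0.23), and S100a6 was lower (-0.90, SE 0.25, adjusted p = 0.024). Vim, Lgals1 and S100a10 instead set Foxp3-positive above Trdc-positive cells, by 1.59 (SE 0.21), 1.51 (SE 0.26) and 1.23 (SE 0.17). Over Trdc-positive cells, 4 of the 10 genes were higher in Foxp3-positive cells (18.5% of all genes higher and 16.9% lower), and 4 were higher and 2 lower in Ccl5-positive CD8 cells (9.91% higher and 6.9% lower). Over Foxp3-negative CD4 cells, 9 were higher in Ccl5-positive CD8 cells (22.2% higher and 19.9% lower), S100a11 missing at 0.13 (adjusted p = 0.24) and turning sign under scaling by totals. Over Ccl5-negative CD8 cells, all 10 were higher in Foxp3-positive cells (31% higher and 30.2% lower). Ccl5-positive CD8 cells were below Foxp3-positive cells for 6 of the 10 genes, S100a4 (log2 fold -1.08) and S100a10 (-1.13) among them, and above them for Crip1 (0.39) and Itgb1 (0.86), with 24.8% of all genes higher and 25.4% lower. For that contrast edgeR scaling and scaling by totals differed by a median of 0.33 log2 units, and no member changed sign. That median was over 3294 genes with a mean of at least 50 CPM. In Ccl5-positive CD8 over Trdc-positive cells, S100a10 changed sign under scaling by totals. Crip1 and Itgb1 had Ccl5-positive CD8 cells first in their order.

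Across the 20 gate sums, each member's log2 level was set against the mean of all 10, itself included. Pearson's r ran from 0.97 for Anxa2, 0.96 for Ahnak, 0.95 for S100a4 and 0.95 for S100a6 down to 0.84 for Vim, 0.81 for Crip1 and 0.48 for Itgb1. Among 3294 genes with a mean over 50 CPM, the non-members most like that mean were Ywhaq, a 14-3-3 protein gene (0.93), Fkbp2 (0.92), S100a13 (0.91), Tmem256 (0.91), Cdc42 (0.90), Prr13 (0.90), Atxn1 (0.89) and Rgs1, a regulator of G protein signalling (0.89). The sums share libraries and depth, so these values only describe likeness over the gates.

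In CD4, CD8 and Foxp3-positive cells, those with S100a4 carried the other genes as well. The CD8 cells here pool the Ccl5-positive and Ccl5-negative gates, which differed in all 10 genes. S100a4 was detected in 6.83% to 9.49% of Ccl5-positive and 0.651% to 1.51% of Ccl5-negative CD8 cells. The part of that gate difference in the CD8 folds below was not tested. Cells with at least 1 S100a4 UMI were set against cells with none, in Foxp3-negative CD4 cells (120, 109, 63 and 97 positive cells in KO-DOX, KO-CTRL, WT-DOX and WT-CTRL), in all CD8 cells (98, 85, 73 and 107) and in Foxp3-positive cells (67, 61, 51 and 73). All 9 other members were higher in S100a4-positive CD4 cells, where 20.2% of 9956 genes were higher and 18.8% lower. All 9 were higher in S100a4-positive CD8 cells (26.3% higher and 27.8% lower of 11166 genes). In Foxp3-positive cells 8 of 9 were higher (10.1% higher and 11.6% lower of 6773 genes). S100a4 itself made the split and has no test.

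S100a6, which starts 6836 bases past the end of S100a4 on the chromosome, showed the steepest split. In S100a4-positive CD8 cells it had 1474 (KO-DOX), 1479.9 (KO-CTRL), 1875 (WT-DOX) and 1847 (WT-CTRL) CPM, against 33.9 (KO-DOX), 29.4 (KO-CTRL), 24.3 (WT-DOX) and 22.8 (WT-CTRL) CPM in S100a4-negative CD8 cells. No value with S100a4 came near any value without it, and the log2 fold was 5.88 (SE 0.22, adjusted p = 1.1e-05). It was 3.70 (SE 0.15) in CD4 and 2.17 (SE 0.08) in Foxp3-positive cells. Anxa2 averaged 396 ± 65.1 CPM in S100a4-positive and 14.9 ± 1.95 CPM in S100a4-negative CD8 cells, a log2 fold of 4.69 (SE 0.10), against 2.96 (SE 0.12) in CD4 and 0.97 (SE 0.13) in Foxp3-positive cells. Lgals1 had log2 folds of 4.16 (SE 0.10) in CD8, 2.67 (SE 0.10) in CD4 and 1.39 (SE 0.08) in Foxp3-positive cells. For Vim the values were 2.73, 1.90 and 1.03, for S100a10 2.31, 1.71 and 0.92, for S100a11 1.53, 1.66 and 1.28, and for Crip1 1.72, 1.11 and 1.05, in the same order.

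Itgb1 was higher with S100a4 in CD8 and CD4 cells and did not pass in Foxp3-positive cells. It averaged 1151 ± 281 CPM in S100a4-positive and 116 ± 15.1 CPM in S100a4-negative CD8 cells (log2 fold 3.25, SE 0.12), and 1117 ± 76.0 and 271 ± 33.9 CPM in CD4 cells with and without S100a4 (1.93, SE 0.08). In Foxp3-positive cells it had 280.3 (KO-DOX), 352 (KO-CTRL), 303 (WT-DOX) and 226 (WT-CTRL) CPM with S100a4, against 208 (KO-DOX), 358 (KO-CTRL), 312 (WT-DOX) and 195 (WT-CTRL) CPM without. Those values overlapped, with 2 libraries higher and 2 lower (log2 fold 0.08, SE 0.10, adjusted p = 0.61). With cells above the 98th percentile of UMIs left out, the Itgb1 difference in Foxp3-positive cells passed (0.54, adjusted p = 5.2e-04). Ahnak was higher in S100a4-positive Foxp3-positive cells (0.55, SE 0.13, adjusted p = 0.0033) and missed the threshold in DESeq2 (adjusted p = 0.0503). The differences of these folds between gates were not tested.

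S100a4-positive cells were deeper, with medians of 5641 to 9188 UMIs in CD8 cells against 3364 to 3440 in S100a4-negative CD8 cells. The medians were 4537 to 5612 against 2882 to 3086 in CD4 cells and 5465 to 6887 against 3199 to 3461 in Foxp3-positive cells. Cells with at least 1500 UMIs were also thinned to 1500, and S100a4 was called again on the thinned counts. Cells that lost S100a4 by thinning then counted as S100a4-negative. This left 51 (KO-DOX), 44 (KO-CTRL), 32 (WT-DOX) and 60 (WT-CTRL) S100a4-positive CD8 cells. In the same order it left 67, 55, 32 and 55 in CD4 and 35, 33, 26 and 48 in Foxp3-positive cells. S100a6 was then detected in 74.5% to 78.1% of S100a4-positive and 2.0% to 2.30% of S100a4-negative CD8 cells. In CD4 cells the thinned shares were 50% to 70.9% with S100a4 and 4.09% to 7.02% without it, and in Foxp3-positive cells 77.1% to 84.6% with it and 26.6% to 28.4% without. Itgb1 was detected in 62.5% to 76.4% of S100a4-positive and 14.9% to 20.9% of S100a4-negative CD4 cells. In Foxp3-positive cells its ranges met, at 23.1% to 31.4% with S100a4 and 16.8% to 27.3% without. The Ahnak ranges met there too, at 22.9% to 42.4% with S100a4 and 20.8% to 24.5% without.

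**Figure D3:**
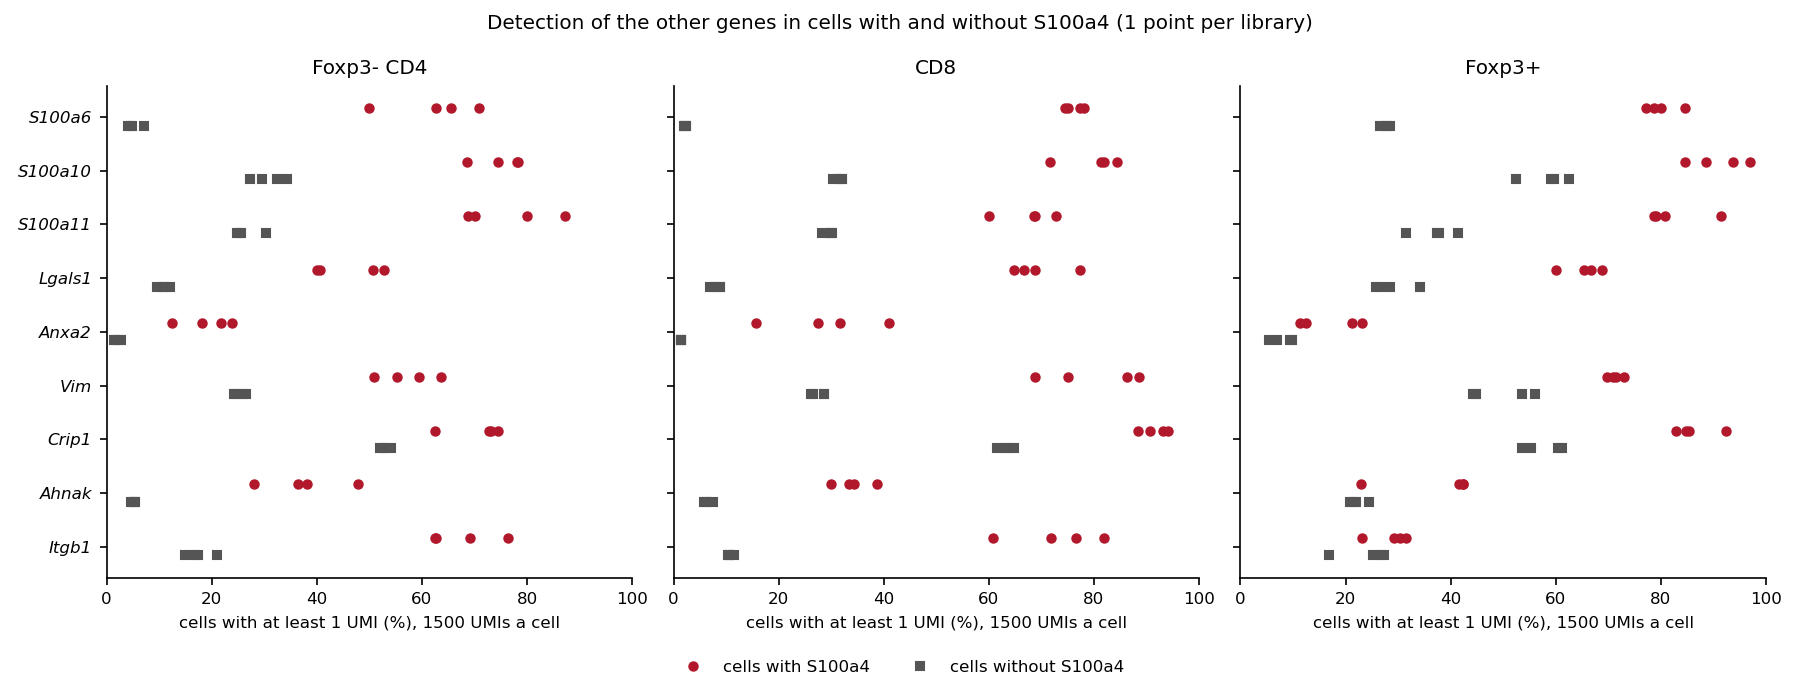
Share of cells with at least 1 UMI of each gene, in percent, among cells of at least 1500 UMIs thinned to 1500. Circles are cells with S100a4 after thinning and squares are cells without it, 1 point per library. The 2 kinds of cell are far apart for S100a6 in each population, and in Foxp3-positive cells they meet for Itgb1 and Ahnak.

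S100a4-positive cells also carried fewer naive transcripts. All 13 naive and quiescence genes were lower in S100a4-positive CD4 cells, 12 of 13 in CD8 and 10 of 12 in Foxp3-positive cells. Igfbp4, a gene of naive T cells, fell by 5.72 in CD4, by 3.08 in CD8 and by 3.01 in Foxp3-positive cells on the log2 scale. Bach2, a repressor of effector programmes, fell by 3.12 in CD4, by 2.40 in CD8 and by 3.46 in Foxp3-positive cells. Memory and effector genes were higher for 17 of 19 tested in CD4, 18 of 18 in CD8 and 10 of 15 in Foxp3-positive cells. Gzmb, a cytotoxic protease gene, had log2 folds of 4.26 in CD4 and 5.94 in CD8 cells, and Cxcr6, a homing receptor gene, 3.25 in Foxp3-positive cells.

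Relatives of the 10 genes moved with them. Of the other S100 and annexin genes tested, 7 of 7 were higher in S100a4-positive CD4 cells, 7 of 7 in CD8 and 3 of 6 in Foxp3-positive cells. Anxa1 had log2 folds of 4.01 in CD4 and 7.21 in CD8 cells, and S100a13 0.94 in CD4, 1.09 in CD8 and 0.63 in Foxp3-positive cells. Of the other cytoskeleton, LIM and lectin genes, 16 of 23 were higher and 2 lower in CD4, 20 of 24 and 1 in CD8, and 11 of 22 and 2 in Foxp3-positive cells. Lgals3 averaged 383 CPM in S100a4-positive and 1.34 CPM in S100a4-negative CD8 cells, and Actn1 fell by 2.60 in CD4, by 1.16 in CD8 and by 2.18 in Foxp3-positive cells. Other integrin chains were divided, with 5 higher and 3 lower of 10 in CD4, 6 and 2 of 12 in CD8, and 2 and 2 of 8 in Foxp3-positive cells.

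All 10 division genes were higher in the S100a4-positive cells of each gate, Mki67 by 2.45 in CD4, 4.06 in CD8 and 1.12 in Foxp3-positive cells. Cst3 was higher as well, at 79.1 to 96.2 CPM in S100a4-positive and 52.3 to 67.3 CPM in S100a4-negative CD4 cells, and at 94.8 to 175 against 49.8 to 64.6 CPM in CD8 cells, while Lyz2 was at 0 in S100a4-positive CD8 and Foxp3-positive cells and at most 1.20 CPM in S100a4-positive CD4 cells. T cell receptor genes summed to 2449 to 3374 CPM in S100a4-positive cells and 2342 to 3143 CPM in S100a4-negative cells. In Foxp3-positive cells Cst3 was at 110 to 149 CPM with S100a4 and 62.9 to 91.8 CPM without. The 5 B and plasma markers, of which 1 to 5 were detected, summed to 523 to 644 CPM with S100a4 and 349 to 411 CPM without in Foxp3-positive cells, and to 182 to 238 and 161 to 168 CPM in CD4 cells. In CD8 cells the order was the other way, at 68.8 to 88.4 CPM with S100a4 and 141 to 156 CPM without. The part of depth, division and these markers in the differences was not tested.

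A small set of very deep cells held a large part of these transcripts. The 179 to 234 T cells per library above the 98th percentile of UMIs, with medians of 13903 to 18749 UMIs, held 8.75% to 11.2% of all T cell UMIs. They held 52.4% to 63.4% of Anxa2, 40.8% to 58.6% of Lgals1, 37.2% to 44.0% of S100a6 and 34.1% to 49.2% of S100a4 UMIs. For Vim the share was 27.8% to 39.4%, for Itgb1 24.5% to 29.3% and for S100a10 23.5% to 29.2%. Ahnak at 16% to 24.1%, S100a11 at 16.3% to 19.4% and Crip1 at 13.2% to 21.2% were nearer to the share of all UMIs. In Foxp3-positive cells 12.4% to 18.3% of cells were this deep and held 43.9% to 52.4% of the UMIs. They held 64.7% to 84.7% of Anxa2, 65.6% to 76.9% of Lgals1 and 62.3% to 75.5% of Vim. Ahnak, at 28.2% to 45.02%, was below the UMI share in every library, and Itgb1 in every library but KO-CTRL. S100a4 was below it in KO-DOX (30.4% against 49.2%) and KO-CTRL (30% against 43.9%). S100a4 was above it in WT-DOX (53.6% against 44.7%) and WT-CTRL (62.7% against 52.4%). S100a6 was divided in the same way, and S100a11 was below the UMI share in KO-DOX alone. S100a10 and Crip1 were above it in every library. In Ccl5-positive CD8 cells 3.63% to 5.75% of cells held 14.1% to 24.4% of the UMIs and 30.7% to 64.3% of S100a4. In Ccl5-negative CD8 cells 1.20% to 1.43% of cells held 5.86% to 9.12% of the UMIs and 44.1% to 80.7% of S100a4, and no Trdc-positive cell was this deep. With these cells left out, all 10 genes still passed for Ccl5-positive over Ccl5-negative CD8 cells. Division genes summed to 7276 to 9642 CPM in these deep cells against 951 to 1121 CPM in the rest. Doublets were not called, and whether deep cells held more of them was not tested.

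With 1 library in each group, the 4 libraries were compared by size alone: a gene was counted when the 95% Poisson intervals of both levels were apart and the log2 fold was at least 0.32. These intervals cover counting error only, and no p can be given. In sums over all T cells, fewer cells of a type and less RNA per cell cannot be told apart. Fold changes are on the log2(CPM + 1) scale, and each library enters 2 of the 4 comparisons.

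In mice of the control genotype, 5 of the 10 genes were lower with doxorubicin and none was higher (3.72% of 9012 genes lower and 0.644% higher). S100a4 had 26.1 CPM in WT-DOX (95% interval 24.6 to 27.7) and 42.4 CPM in WT-CTRL (40.5 to 44.4), a log2 fold of -0.68. Anxa2 fell by 0.48, S100a6 by 0.42, Ahnak by 0.35 and Itgb1 by 0.34. The median log2 fold was -0.32 over the 10 genes and -0.02 over all genes. Crip1 had 913 CPM in WT-DOX and 914 CPM in WT-CTRL. With cells above the 98th percentile of UMIs left out, 2 genes were lower, and with each cell given the same weight, 3.

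In the knockout, only S100a4 passed the size rule (0.754% of 9022 genes higher and 0.92% lower). It had 47.6 CPM in KO-DOX and 34.3 CPM in KO-CTRL, a log2 fold of 0.46, and the share of T cells with S100a4 was 1.42 times as large in KO-DOX (95% interval 1.24 to 1.63). S100a6 had 193 CPM in KO-DOX and 163 CPM in KO-CTRL (log2 fold 0.24), and its share of cells was 1.33 times as large. The median over the 10 genes was 0.09. Without the cells above the 98th percentile of UMIs, or with each cell given the same weight, 3 genes were higher.

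Between the control-treated libraries, none of the 10 genes passed by size (1.54% of 9038 genes higher and 0.786% lower), with S100a4 at 34.3 CPM in KO-CTRL and 42.4 CPM in WT-CTRL (log2 fold -0.30). Between the doxorubicin-treated libraries, 5 were higher and none lower in KO-DOX (4.45% of 8997 genes higher and 1.02% lower). S100a4 had 47.6 CPM in KO-DOX and 26.1 CPM in WT-DOX (log2 fold 0.84). S100a6 followed at 0.63, Lgals1 and Anxa2 at 0.60 each and Itgb1 at 0.37. In these sums WT-DOX was the lowest library for all 10 genes. The order against WT-CTRL did not hold for all of them in other settings. With cells above the 98th percentile of UMIs left out, WT-DOX over WT-CTRL was above 0 for Vim (0.10) and Crip1 (0.11). With each cell given the same weight it was above 0 for S100a10 (0.014), S100a11 (5.9e-04), Vim (0.090) and Crip1 (0.091), and with median-of-ratios scaling for Crip1 (0.026).

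**Figure D4:**
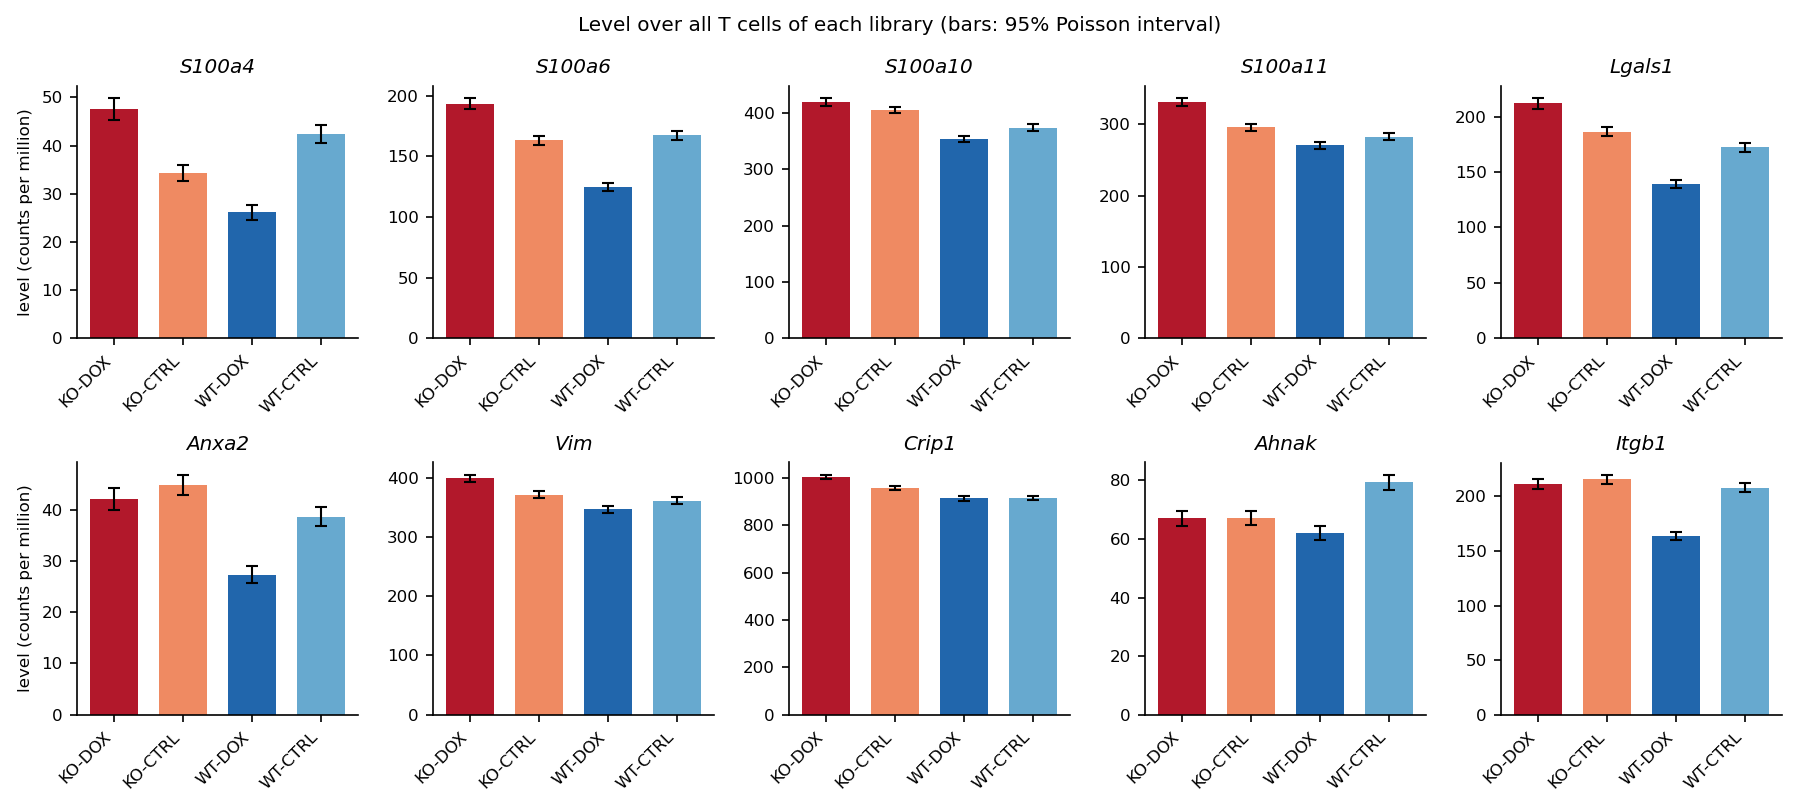
Level of each gene over all T cells of each library, in CPM on a linear axis from 0, with 95% Poisson intervals from the counts. In these sums WT-DOX is lowest for every gene, with the smallest gap for Crip1, at 913 CPM in WT-DOX and 914 CPM in WT-CTRL. Its order against WT-CTRL turns for S100a10, S100a11, Vim and Crip1 when each cell has the same weight, and for Vim and Crip1 with the deepest cells left out.

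Division genes differed between the same libraries. Their summed level over all T cells was 2052 (KO-DOX), 2049 (KO-CTRL), 1504 (WT-DOX) and 1795 (WT-CTRL) CPM, and by the same size rule 8 of 10 division genes were higher in KO-DOX than in WT-DOX and 6 of 10 lower in WT-DOX than in WT-CTRL. Of 17 memory and effector genes measured, 8 were higher in KO-DOX than in WT-DOX and 4 lower in WT-DOX than in WT-CTRL. Among naive and quiescence genes, 0 of 13 passed between KO-DOX and WT-DOX, and 2 were higher and 2 lower between WT-DOX and WT-CTRL. None of 5 other S100 and annexin genes passed in any of the 4 comparisons. The part of dividing cells in the library differences was not tested.

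Inside the gates the pattern was uneven. In Ccl5-positive CD8 cells 7 of the 10 genes were lower in WT-DOX than in WT-CTRL (2.84% of all genes lower), with S100a4 at 48.6 CPM in WT-DOX and 131 CPM in WT-CTRL (log2 fold -1.41). There, 7 were higher in KO-DOX than in WT-DOX (2.15% higher), and Lgals1 had 492 CPM in KO-DOX and 270.4 CPM in WT-DOX. With cells above the 98th percentile of UMIs left out, S100a6, Lgals1 and Ahnak lost the lower level in WT-DOX (log2 folds over WT-CTRL of 0.052, 0.0053 and 0.031), and Anxa2 the higher level in KO-DOX over WT-DOX (-0.050). The single cell with most S100a4 held 12% to 13.4% of the S100a4 UMIs of this gate in each library. Between KO-DOX and KO-CTRL, S100a4 was higher (0.49; 0.896% of all genes higher) and Lgals1 (-0.32) and Anxa2 (-0.35) were lower (1.79% lower), but both turned with the deepest cells left out (0.021 and 0.016). Between KO-CTRL and WT-CTRL, Lgals1 (0.40) and Anxa2 (0.36) were higher (3.33% higher) and S100a4 lower (-0.60; 1.75% lower). Anxa2 turned there with each cell given the same weight (-0.013) and with the deepest cells left out (-0.18).

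In Foxp3-negative CD4 cells 4 genes were higher in KO-DOX than in KO-CTRL (1.94% higher), with S100a4 at 87.5 CPM in KO-DOX and 42.4 CPM in KO-CTRL (1.03), S100a6 at 0.63, Lgals1 at 0.58 and S100a11 at 0.37. In the same gate 6 were higher in KO-DOX than in WT-DOX (3.96% higher), and the share of cells with S100a4 was 1.94 times as large in KO-DOX (95% interval 1.44 to 2.62). S100a4 was the only one lower in WT-DOX than in WT-CTRL (2.1% lower), and Anxa2 the only one higher in KO-CTRL than in WT-CTRL (0.49; 2.14% higher). Ccl5-negative CD8 cells had 5 genes lower in WT-DOX than in WT-CTRL (4.32% lower), 5 higher in KO-DOX than in WT-DOX (4.27% higher), and S100a6 and Lgals1 higher in KO-DOX than in KO-CTRL (1.03% higher). None passed there between KO-CTRL and WT-CTRL (1.38% higher and 1.15% lower).

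Foxp3-positive cells had 4 genes lower in WT-DOX than in WT-CTRL (1.42% lower), S100a4 at -0.48 and S100a6 at -0.47 among them, and Itgb1 higher (0.53; 1.24% higher). In the knockout the Itgb1 value was the reverse, at 248 CPM in KO-DOX and 356 CPM in KO-CTRL (-0.52), with Anxa2 also lower (1.53% lower) and S100a4 higher (0.50; 2.22% higher). Between KO-CTRL and WT-CTRL, S100a4, S100a6 and Ahnak were lower (1.48% lower) and Itgb1 higher (0.74; 1.2% higher), and with the deepest cells left out S100a6 turned (0.12 against -0.34). None passed between KO-DOX and WT-DOX (1.73% higher and 1.77% lower), S100a4 standing at 247 CPM in KO-DOX and 248 CPM in WT-DOX, and its log2 fold was 0.70 with the deepest cells left out.

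Trdc-positive cells had 7 of the 10 genes lower in KO-CTRL than in WT-CTRL (0.574% lower) and 3 lower in KO-DOX than in WT-DOX (0.578% lower), S100a4 with 79.4 CPM in KO-DOX and 213 CPM in WT-DOX. S100a4 was the only one lower in WT-DOX than in WT-CTRL (-0.84; 0.629% lower), and none passed between KO-DOX and KO-CTRL (0.366% higher and 0.444% lower). That gate held 85 to 106 cells a library.

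The doxorubicin responses of the 10 genes were set against each other, knockout minus control genotype. Over all T cells the log2 response in KO minus that in WT was above 0 for 10 of 10 genes, and its counting interval lay above 0 for all 10. Among 9016 genes it was above 0 for 58.9%, with the interval above 0 for 18.4% and below 0 for 9.11%. The median was 0.33 over the 10 genes and 0.03 over all genes. It was largest for S100a4 (1.14, interval 0.99 to 1.29), then S100a6 (0.67), Lgals1 (0.49), Anxa2 (0.39), Ahnak (0.35), Itgb1 (0.31) and S100a11 (0.23), and smallest for Vim (0.16), S100a10 (0.13) and Crip1 (0.07). The interval lay above 0 for 8 of 10 genes in Ccl5-positive CD8 cells (4.73% of all genes), 6 in Foxp3-positive (6.23%), none in Trdc-positive (3.2%), 7 in Foxp3-negative CD4 (7.48%) and 9 in Ccl5-negative CD8 cells (14.4%). It lay below 0 for Itgb1 in Foxp3-positive cells (-1.05; 5.39% of all genes) and for Vim in Foxp3-negative CD4 cells (-0.13; 5.65%). The difference compares 4 single libraries and has no replicate check.

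**Figure D5:**
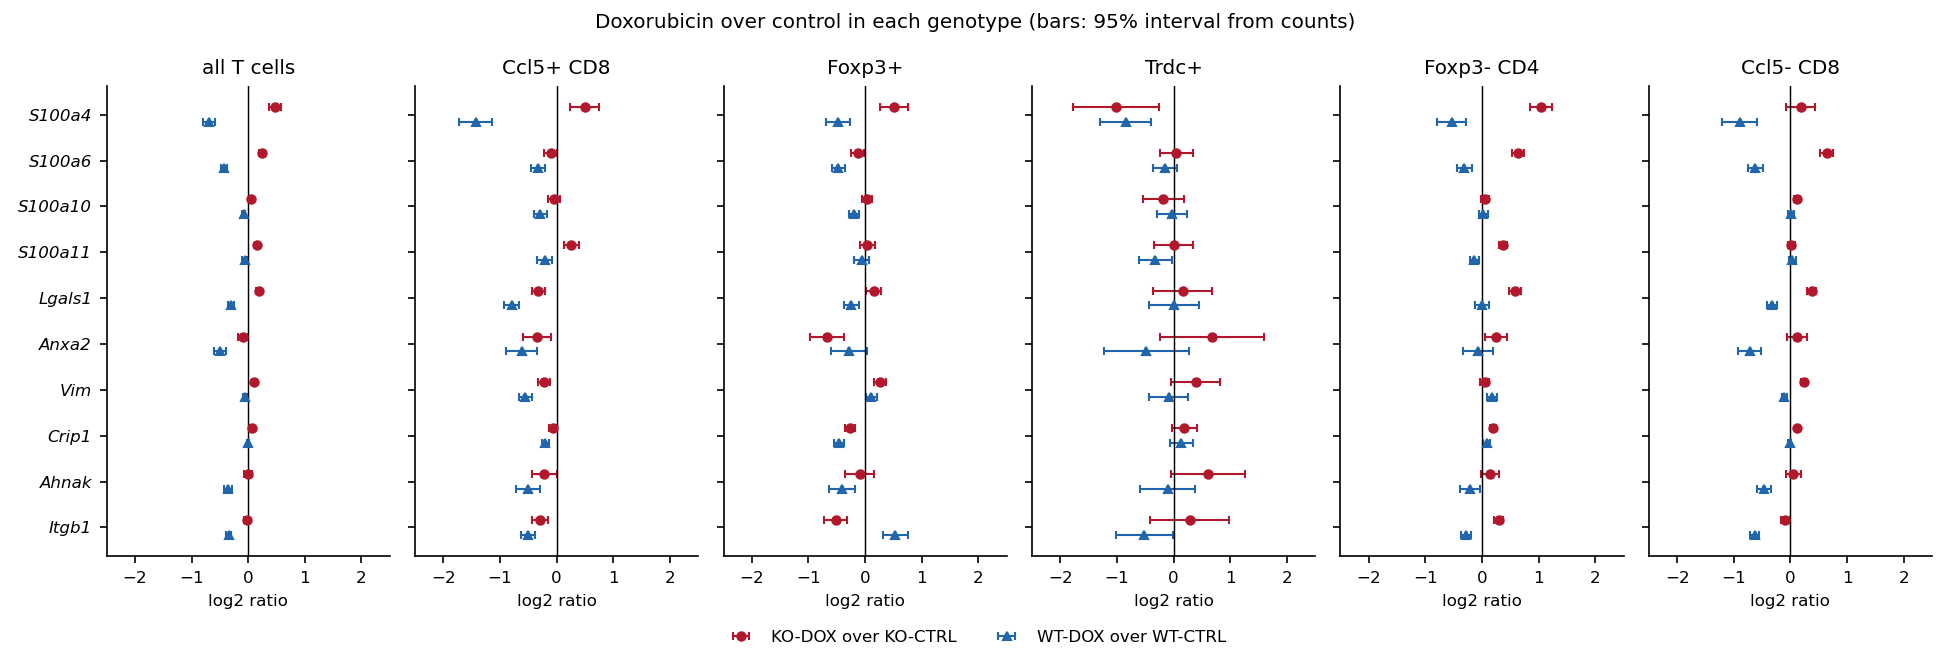
Log2 ratio of doxorubicin over control for each gene in the knockout (circles) and in the control genotype (triangles), over all T cells and in each gate, with 95% intervals from the counts, on the plain ratio of CPM. For S100a4 the 2 genotypes fall on opposite sides of 0 in all T cells and in every gate but Trdc-positive. In Ccl5-negative CD8 cells the knockout value, 0.17 on the log2(CPM + 1) scale, does not pass the size rule.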

How the data were processed

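Libraries were made with a 5′ single-cell kit, and the genome build was mm10 per the submitters' processing notes. No source used here names the aligner or counter. The deposited matrices hold raw UMI counts per gene and barcode, made by the authors. Barcodes under 300 genes or over 10% mitochondrial UMIs were dropped. Cells with 2 or more UMIs of B markers, or 3 or more of antigen-presenting markers, were set aside. Gates needed at least 1 UMI of their marker, and cells with UMIs of both Cd4 and Cd8 genes (276 to 357 a library) fell in none. No doublet caller was run. The 10 genes, gene lists and tests were chosen with earlier results of these data known.

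Counts were summed over 5 gates and 4 libraries and tested with edgeR 4.0.16 (quasi-likelihood test, TMM scaling, library as a block, Benjamini-Hochberg adjustment over all genes tested) in R 4.3.3. DESeq2 1.42.0 was an alternative. The block is paired by construction, since the sums of one library come from the same library. Standard errors are the log2 fold over the root of F. P-values of the gate contrasts come from 1 fit of all 20 sums, with a spread shared by the 5 gates and moderated over genes. Those of the S100a4 contrasts come from a fit per gate over cells with and without S100a4 in the 4 libraries, moderated likewise. They do not measure the spread of 4 libraries in 1 gate alone, and the number of mice is not given. The pipeline was tested on simulated data. Cells with and without S100a4 were compared in the same way. Libraries were compared by size only, with exact Poisson intervals for CPM and exact Clopper-Pearson intervals for shares (95%), among genes with a mean of at least 5 CPM. For shares, cells with at least 1500 UMIs were thinned to 1500, and S100a4-positive cells were called again on the thinned counts. The text names the 10 genes, up to 3 genes per list and direction by size of change among those that passed, the targeted gene, the gate genes, and the 8 genes most like the members. Python 3.11.15, numpy 2.4.6, scipy 1.17.1 and pandas 2.3.3 were used.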

Additional observations from a re-analysis of the deposited data

Results flagged for a closer look

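For S100a4 the doxorubicin-treated library was higher by size in the knockout and lower in the control genotype in several populations. The log2 response in KO minus that in WT was 1.14 over all T cells, 1.90 in Ccl5-positive CD8 cells, 1.55 in Foxp3-negative CD4 cells and 0.98 in Foxp3-positive cells. S100a6 showed this in Ccl5-negative CD8 cells, at 1.24. Itgb1 showed the opposite in Foxp3-positive cells, at -1.05, lower in KO-DOX than in KO-CTRL and higher in WT-DOX than in WT-CTRL. Each value compares 4 single libraries, and the difference between genotypes was not tested.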

How the results depend on the processing

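Counts of members that passed in either direction were 10 in every setting for Ccl5-positive over Ccl5-negative CD8 cells. They were 9 to 10 for Foxp3-positive over Foxp3-negative CD4 cells, where the added gene was Itgb1, lower with at least 2 UMIs of each gate marker. For Trdc-positive over Ccl5-negative CD8 cells they were 6, 4 to 6 with 1 library left out and 6 to 9 in other settings. For Foxp3-negative CD4 over Ccl5-negative CD8 cells they were 8, of which 7 were higher and 1 lower, and 7 to 8 with 1 library left out. For cells with S100a4 over cells without it they were 9 in CD4 and in CD8 cells in every setting, and 8, with 7 to 9 in other settings, in Foxp3-positive cells. With no replicate block the counts were 10, 9, 7 and 7 for the gates, in that order, and 9, 9 and 7 for the S100a4 contrasts. No paired analysis was possible between libraries because each group has 1 library.

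By size over all T cells, WT-DOX over WT-CTRL had 3 lower with each cell given the same weight and 2 with cells above the 98th percentile of UMIs left out. KO-DOX over KO-CTRL had 3 higher in each of these, and 2 at a cutoff of 0.2. KO-CTRL over WT-CTRL had 1 higher at 0.2, and 1 lower with equal cell weights, 1 with gates weighted equally and 2 at 0.2. KO-DOX over WT-DOX had 8 higher at 0.2. The response difference was above 0 for 10 of 10 genes in every setting, by sign alone and without intervals. The smallest values were for Crip1, at 0.0069 with cells above the 98th percentile left out and 0.010 with equal cell weights. Its main value was 0.07.

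Among single genes that passed in at least one of the settings compared, these changed sign, by log2 fold. With at least 2 UMIs of each gate marker, Ahnak was 0.11 (Ccl5-positive CD8 over Foxp3-positive) and S100a6 -0.97 (KO-DOX over KO-CTRL, Trdc-positive). With equal cell weights, S100a6 was 0.037 (WT-DOX over WT-CTRL, Ccl5-positive CD8), S100a4 0.48 (KO-DOX over WT-DOX, Foxp3-positive), Anxa2 -0.013 (KO-CTRL over WT-CTRL, Ccl5-positive CD8), and, in Ccl5-negative CD8 cells of that comparison, S100a4 -0.47 and Anxa2 -0.62. All others of this kind came with cells above the 98th percentile left out. Crip1 was -0.34 for Foxp3-positive over Trdc-positive cells. For WT-DOX over WT-CTRL, S100a6 was 0.052, Lgals1 0.0053 and Ahnak 0.031 in Ccl5-positive CD8, and Crip1 0.046 in Foxp3-positive cells. For KO-DOX over KO-CTRL in Ccl5-positive CD8 cells, S100a6 was 0.57, Lgals1 0.021 and Anxa2 0.016. For KO-CTRL over WT-CTRL, Anxa2 was -0.18 in Ccl5-positive CD8, S100a6 0.12 and Crip1 0.47 in Foxp3-positive, S100a4 0.44 in Foxp3-negative CD4, and S100a4 -0.70, Lgals1 -0.44 and Anxa2 -0.64 in Ccl5-negative CD8 cells. For KO-DOX over WT-DOX, Anxa2 was -0.050 in Ccl5-positive CD8 and S100a4 0.70 in Foxp3-positive cells. Genes that passed in neither setting changed sign 18 times in the gate and S100a4 contrasts, 76 times between libraries inside gates and 20 times over all T cells. Over all T cells this touched S100a10, S100a11, Vim and Crip1 for WT-DOX over WT-CTRL, Anxa2 (-0.09, with 0.22 at equal cell weights and 0.20 without the deepest cells), Ahnak and Itgb1 for KO-DOX over KO-CTRL, and Lgals1 (0.11, with -0.15 at equal cell weights), Anxa2 (0.21, with -0.20) and Vim for KO-CTRL over WT-CTRL. The cause was not tested. Trdc-positive cells had few S100a4 UMIs, 19 to 117 a library.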

Other observations

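The cells set aside carried these genes as well. In the antigen-presenting marked cells, S100a4 had 479 (KO-DOX), 349 (KO-CTRL), 272 (WT-DOX) and 222 (WT-CTRL) CPM, and 62.5% to 70.2% of those cells held it. Lgals1 had 1416 (KO-DOX), 1561 (KO-CTRL), 2082 (WT-DOX) and 1834 (WT-CTRL) CPM there, and Vim 1872 (KO-DOX), 2131 (KO-CTRL), 2601 (WT-DOX) and 2784 (WT-CTRL) CPM. These values rest on 24 to 47 cells a library and were not tested.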
